A study of Mus musculus with 34 samples.

Results

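The 37 genes of the mitochondrial genome were described in single mouse blastocysts. They were taken as every row of the blastocyst FPKM table whose symbol begins with mt-, 37 of 51734 rows: 13 mRNAs, 2 rRNAs and 22 tRNAs. FPKM counts fragments per kilobase of transcript, scaled to the size of the library. The embryos came from zygotes injected with mRNA for wild-type (WT) CHK1, a kinase of the DNA damage checkpoint, or for the R442Q mutant of CHK1. The WT control group was therefore itself injected with CHK1 mRNA, and how far CHK1 exceeded its natural level was not tested. All 14 blastocysts, 7 WT and 7 R442Q, had grown in KSOM medium with a CHK1 inhibitor at 30 nM, and each library was 1 whole embryo made by SMART-seq2. No strain is given in the labels, and no uninjected or inhibitor-free blastocyst was analysed here. Zygotes (5 WT and 6 R442Q) and late 2-cell embryos (4 WT and 5 R442Q) were used only for nuclear copies of mitochondrial genes. Their labels give no inhibitor dose. The question put to the mt- rows was how much mitochondrial RNA each embryo held, how it divided among the genes, and whether it differed between the groups.

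Mammalian mitochondrial DNA is copied into long transcripts from both strands, and the tRNAs lying between the other genes are cut out to release mRNAs and rRNAs. The mRNAs encode core subunits of the respiratory chain and of ATP synthase, and the rRNAs and tRNAs serve the mitochondrion's own ribosome. The oocyte supplies the embryo's mitochondria, and their number is divided among the blastomeres during cleavage. Most mitochondrial mRNAs carry short poly(A) tails, the feature that SMART-seq2 primes on.

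Part of the mitochondrial genome has a near-identical copy in nuclear DNA, and this set which genes could be read from their rows. A block on chromosome 1 (24611535 to 24616197, minus strand, GENCODE M21 on GRCm38) holds 7 annotated pseudogenes, each sharing over 90% of its 50-base stretches with a mitochondrial gene. Gm10925 matched mt-Atp6 over 678 of its 681 bases with 0 mismatches. Gm28661 matched mt-Co2 over 681 bases, Gm28437 matched mt-Co3 over 783, Gm10222 matched mt-Nd4l over 294, and Gm28439 matched mt-Nd4 over 876, all with 0 mismatches. The copy of mt-Nd3, Gm28438, differed at 1 of 345 aligned bases (T3C, counted from the first base of mt-Nd3). Gm29216 covered 492 of the 1545 bases of mt-Co1. Of the mRNAs, mt-Nd1, mt-Nd6, mt-Cytb and mt-Atp8 shared 0% of their 50-base stretches with a nuclear gene of that annotation, mt-Nd5 shared 7.6% and mt-Nd2 shared 8.2%. Neither rRNA shared more than 1%. Only annotated transcripts were searched, so DNA between annotated genes was not covered. That includes the interval between Gm28661 and Gm10925, where mt-Atp8 lies in the mitochondrial order.

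Sequences are shown for 2 of the pairs, 1 with no mismatch and 1 with a single mismatch, all from the GENCODE M21 transcripts on GRCm38, 5′ to 3′. The last 60 bases of mt-Atp6 (chrM:8548-8607, plus strand) and the last 57 of Gm10925 (chr1:24613974-24614030, minus strand) differ by the stop codon, in capitals, at which the copy's annotation ends. The first 60 bases of mt-Nd3 (chrM:9459-9518, plus strand) and of Gm28438 (chr1:24613060-24613119, minus strand) have the differing base in capitals.
mt-Atp6: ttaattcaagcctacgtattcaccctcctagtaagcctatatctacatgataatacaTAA
Gm10925: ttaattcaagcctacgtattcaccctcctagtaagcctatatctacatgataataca
mt-Nd3: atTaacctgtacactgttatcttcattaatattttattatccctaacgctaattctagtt
Gm28438: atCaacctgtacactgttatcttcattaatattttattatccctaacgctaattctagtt

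A further overlap lies inside the mitochondrial genome, where mt-Atp8 and mt-Atp6 are read from 1 mRNA. The last 43 bases of mt-Atp8 are also the first 43 of mt-Atp6 (chrM:7927-7969, plus strand), with the start codon of mt-Atp6 in capitals.
mt-Atp8 and mt-Atp6 overlap: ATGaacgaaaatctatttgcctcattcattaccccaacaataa

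Of the 37 members, 12 reached an FPKM of 1 in at least 7 of the 14 embryos and were tested: 10 mRNAs and both rRNAs. The other 25 did not, namely all 22 tRNAs, mt-Co3, mt-Nd3 and mt-Nd4l. Every tRNA was listed at 0 in all 14 embryos. The tRNAs are 59 to 75 bases long, and of all 2338 rows with an annotated length under 100 bases, 2308 were listed at 0 in every embryo. Nothing can therefore be read here about mitochondrial tRNA levels. The rows of mt-Nd3 and mt-Nd4l were above 0 in 2 and 3 embryos, and mt-Co3 was at or above 1 in 5.

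The embryos' measures that could move with these rows were as follows. Relative depth, recovered from the value of 1 fragment in low rows, ranged from 0.878 to 1.11 of the mean. Rows at an FPKM of at least 1 numbered 11420 ± 850 in WT and 11146 ± 1365 in R442Q embryos (SD, n = 7 each). Neither these nor the FPKM sum outside the mt- rows differed between the groups beyond the spread between embryos (exact two-sided permutation p 0.576, 0.702 and 0.125; adjusted over 3 tests 0.702, 0.702 and 0.376). All 7 trophectoderm, 5 epiblast and 5 primitive endoderm markers passed the filter. The 6 cumulus cell markers summed to at most 0.16 FPKM in any embryo. The 3 blood markers summed to at most 3.13 FPKM in WT and 4.01 in R442Q embryos, and 0 of them passed the filter. Chek1, the injected gene, was listed at 7.05, 19.4 and 38.3 FPKM in WT and at 13.3, 18.5 and 23.6 in R442Q (lowest, median and highest), with an exact two-sided permutation p of 0.913. Counts of fragments do not separate injected from endogenous mRNA.

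The mitochondrial share of an embryo's FPKM varied far more among embryos than between the groups. In WT embryos its lowest, median and highest values were 0.190%, 0.411% and 1.35%. In R442Q embryos they were 0.115%, 0.430% and 4.71%. The highest value belonged to R442Q replicate 7, which lay 3.49 times above the next embryo, WT replicate 4. The other 13 embryos still spanned 11.7 times from lowest to highest, and the groups overlapped over most of that range. Means were 0.649% ± 0.440 in WT and 1.08% ± 1.65 in R442Q (SD, n = 7 each). Without R442Q replicate 7 the R442Q mean was 0.471% ± 0.414 (SD, n = 6), so that the difference of the means went from 0.427 to -0.178 percentage points. With the 7 chromosome 1 copies added, R442Q replicate 7 held 8.35% and the next embryo, WT replicate 4, held 1.76%. The share sums the members, and no test was run on it with or without the copies. In a share taken from a library of a whole embryo, more mitochondrial RNA per cell, less RNA of other genes and more cells rich in mitochondrial RNA cannot be told apart.

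**Figure D1:**
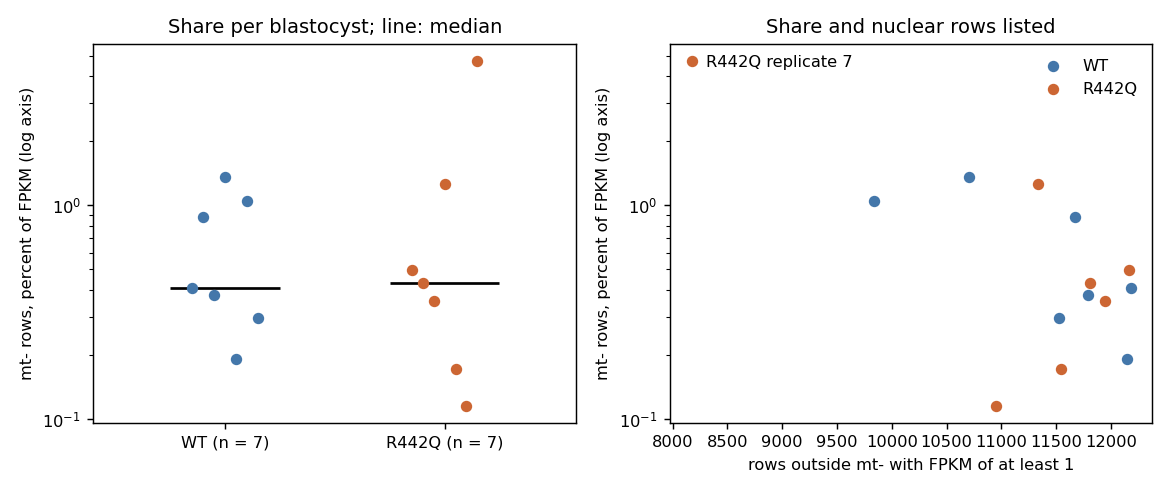
Left, mitochondrial rows as a percentage of each blastocyst's FPKM on a log axis, by group, with 1 point per embryo and the group median as a line. Right, the same share against the number of rows outside the mt- set at an FPKM of at least 1. The 7 WT embryos lie between 0.190% and 1.35%, and R442Q replicate 7 lies apart at 4.71% with 8174 such rows.

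R442Q replicate 7 also stood apart in the rest of its library. It had 8189 rows at an FPKM of at least 1, where the other 13 embryos had 9852 to 12191. WT replicate 6, with 9852 rows, and WT replicate 4, with 10714, held shares of 1.04% and 1.35%. R442Q replicate 6 had 10962 rows and the lowest share, 0.115%. The relative depth of R442Q replicate 7 was 0.962, inside the range of the others. Its trophectoderm markers summed to 4298 FPKM, its primitive endoderm markers to 562 and its epiblast markers to 77.4, the lowest epiblast sum of the 14. Whether any of these measures bears on its mitochondrial share was not tested.

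Within the share, rRNA was a small part. The rRNAs, which form the small (mt-Rnr1) and large (mt-Rnr2) subunits of the mitochondrial ribosome, made up a median of 6.55% of mitochondrial FPKM in WT and 6.59% in R442Q embryos. That part, taken without the chromosome 1 copies, ranged from 5.07% to 9.23% over the 14 embryos, and the groups overlapped. mt-Rnr2 (ENSMUSG00000064339.1; chromosome M, 1094 to 2675) was listed at a lowest, median and highest FPKM of 106, 264 and 1191 in WT embryos, and of 92.9, 220 and 4050 in R442Q embryos. mt-Rnr1 (ENSMUSG00000064337.1; chromosome M, 70 to 1024) was listed at 8.29, 33.6 and 183 FPKM in WT and at 14.4, 20.2 and 878 in R442Q. Per length the large-subunit rRNA was higher than the small-subunit rRNA in every embryo, by a log2 ratio of 3.16 ± 0.59 in WT and 3.02 ± 0.62 in R442Q (SD, n = 7 each).

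Complex I takes electrons from NADH, and mitochondrial DNA encodes 7 of its subunits. mt-Nd1 (ENSMUSG00000064341.1; chromosome M, 2751 to 3707) was the highest of them, with a lowest, median and highest FPKM of 272, 529 and 2523 in WT and of 159, 817 and 10499 in R442Q embryos. mt-Nd2 (chromosome M, 3914 to 4951), the next mRNA along the genome, was far lower at 8.78, 19.8 and 71.6 FPKM in WT and 5.66, 24.1 and 504 in R442Q. mt-Nd1 has no match of 50 bases among the annotated nuclear transcripts, and mt-Nd2 has them over 8.2% of its stretches. Their log2 ratio was 4.95 ± 0.36 in WT and 4.99 ± 0.41 in R442Q (SD, n = 7 each), so that mt-Nd2 stood well below mt-Nd1 in all 14 embryos. mt-Nd4 had a median of 129 FPKM in WT and 120 in R442Q, and mt-Nd5 had 72.2 and 65.2. The copy of mt-Nd4, Gm28439, was listed at 0 in all 14 embryos.

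mt-Nd6 (ENSMUSG00000064368.1; chromosome M, 13552 to 14070) is the only mRNA encoded on the minus strand of the reference. It was the lowest of the tested mRNAs, with 0.64, 3.28 and 21.9 FPKM in WT and 0.67, 3.96 and 318 in R442Q (lowest, median and highest). Relative to mt-Nd5, whose end it overlaps on the opposite strand, its log2 level was -4.55 ± 0.73 in WT and -3.73 ± 1.14 in R442Q (SD, n = 7 each). This ratio was highest in R442Q replicate 7, at -1.61, and the highest of the 13 others was -3.12. Without that embryo the R442Q mean was -4.08 ± 0.72 (SD, n = 6), and the WT and R442Q embryos overlapped. Strand use in the counting is not given in the sources used here, so fragments of the overlap may be listed under either gene.

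mt-Cytb (ENSMUSG00000064370.1; chromosome M, 14145 to 15288) encodes cytochrome b, the only mitochondrially encoded subunit of complex III. It was the second of the 13 mRNAs by its median per length and shares no 50-base stretch with an annotated nuclear transcript. Its lowest, median and highest FPKM were 455, 1080 and 4328 in WT and 392, 1337 and 18494 in R442Q embryos. It was higher than mt-Nd1 in 14 of 14 embryos, by a log2 ratio of 0.91 ± 0.23 in WT and 0.84 ± 0.39 in R442Q (SD, n = 7 each).

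**Figure D2:**
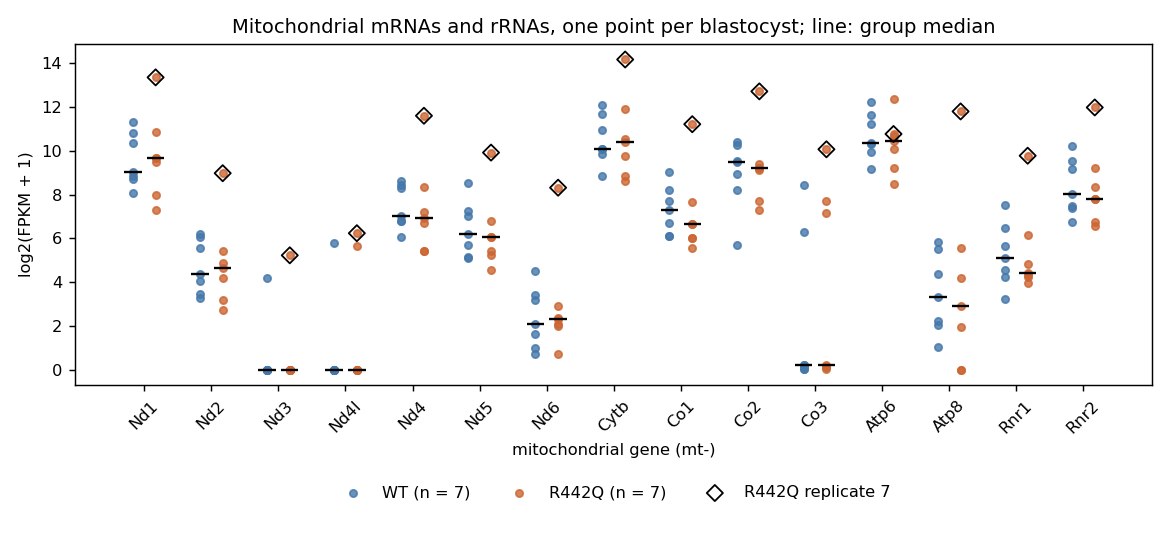
Level of the 13 mitochondrial mRNAs and 2 rRNAs as log2(FPKM + 1), with 1 point per blastocyst (WT blue, R442Q orange), the group median as a line and R442Q replicate 7 marked by a diamond. R442Q replicate 7 is the highest embryo for 14 of the 15 genes, and mt-Atp6, where it lies among the others at 1748 FPKM, is the exception.

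R442Q replicate 7 was the highest of the 14 embryos for 14 of these 15 genes as listed. It exceeded the next embryo by 1.35 times (mt-Nd4l) to 64.5 times (mt-Atp8). The exception was mt-Atp6. This gene (ENSMUSG00000064357.1; chromosome M, 7927 to 8607), the subunit that forms the proton channel of ATP synthase, stood at 567, 1334 and 4835 FPKM in WT embryos and at 359, 1400 and 5221 in R442Q embryos (lowest, median and highest). R442Q replicate 7 held 1748. The identical nuclear copy Gm10925 was listed at 24226 FPKM in that embryo and at no more than 0.01 in the 13 others. Fragments of the pair listed under the copy were thus 93.2% in R442Q replicate 7 and 0% in the others. With both rows joined, in units of the length of mt-Atp6, R442Q replicate 7 held 25868 FPKM and the others at most 5221.

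mt-Atp8 (ENSMUSG00000064356.3; chromosome M, 7766 to 7969), the other ATP synthase subunit and the shortest of the mRNAs at 204 bases, varied widely between embryos. Its lowest, median and highest FPKM were 1.07, 8.96 and 55.4 in WT and 0, 6.49 and 3571 in R442Q. It was listed at 0 in 2 R442Q embryos, replicates 3 and 6. The high value was again that of R442Q replicate 7, in which the fragments of mt-Atp6 were mostly listed under the nuclear copy. Since mt-Atp8 shares its last bases with mt-Atp6, the division of fragments between both rows cannot be separated from their levels.

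Complex IV, which passes electrons to oxygen, has its catalytic core in the products of mt-Co1, mt-Co2 and mt-Co3. mt-Co1 (ENSMUSG00000064351.1) had a median of 154 FPKM in WT and 98.6 in R442Q embryos. Its partial copy Gm29216 took 24.2% to 51.2% of the pair's fragments. mt-Co2 (ENSMUSG00000064354.1) had medians of 726 and 590 FPKM, and its copy Gm28661 took from 0.029% to 90.4%. The embryos on either side of an even split came from both groups, with more fragments under the copy in WT replicates 4, 6 and 7 and R442Q replicate 4.

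The row of mt-Co3 (ENSMUSG00000064358.1, chromosome M, 8607 to 9390), whose copy is Gm28437, was near 0 in most embryos. It was listed at 345, 76.8, 142, 210 and 1076 FPKM in WT replicates 2 and 6 and R442Q replicates 1, 4 and 7, and at 0.02 to 0.18 in the other 9 embryos. In those 9, over 99% of the pair's fragments were listed under Gm28437. Joined, the pair ranged from 146 to 1103 FPKM in WT embryos and from 102 to 734 in R442Q embryos other than replicate 7, which held 6889. For mt-Nd3 and mt-Nd4l most fragments were likewise under the copy, at least 76.5% and 90.9% of their pairs' fragments in every embryo. Joined medians were 30.7 FPKM in WT and 16.2 in R442Q for mt-Nd3, and 267 and 248 for mt-Nd4l.

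**Figure D3:**
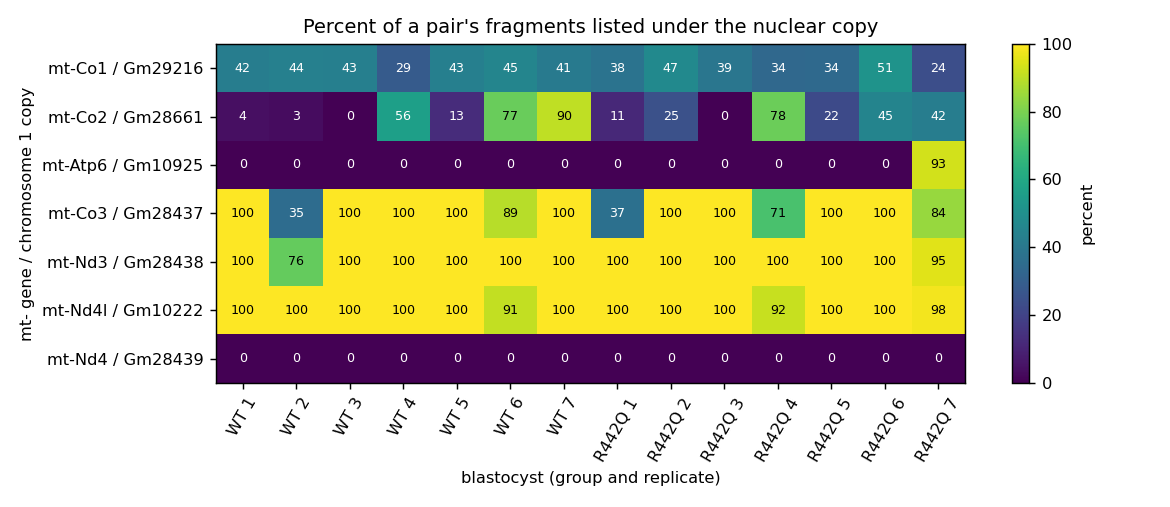
Percentage of the fragments of each mitochondrial gene and its chromosome 1 copy that was listed under the copy, with genes in rows, 14 blastocysts in columns and the rounded value printed in each field. The mt-Atp6 pair is at 0% in 13 embryos and 93.2% in R442Q replicate 7, and the mt-Co2 pair runs from 0.029% to 90.4%.

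With the 7 copies joined to their genes, the rows of all 13 mRNAs could be ordered per length. By the median of 14 embryos mt-Atp6 (1367 FPKM) and mt-Cytb (1209) led. mt-Nd1 (774) and mt-Co2 (762) followed, then mt-Co3 (304), mt-Nd4l (261), mt-Co1 (186), mt-Nd4 (125) and mt-Nd5 (65.4). At the foot of the order came mt-Nd2 (21.9), mt-Nd3 (17.2), mt-Atp8 (7.73) and mt-Nd6 (3.63). Since mt-Atp8 and mt-Atp6 are read from the same mRNA, the gap between their rows cannot be taken as a difference in transcript level. The place of mt-Atp8 is therefore that of its row as listed, and why this row was low was not tested. Neighbours were not always separable. mt-Atp6 exceeded mt-Cytb in 10 of 14 embryos, mt-Co3 exceeded mt-Nd4l in 9, mt-Nd2 exceeded mt-Nd3 in 6, and mt-Nd1 exceeded mt-Co2 in only 2 although its median was higher. By contrast mt-Cytb stood above mt-Nd1, mt-Co2 above mt-Co3, mt-Nd4 above mt-Nd5 and mt-Nd5 above mt-Nd2 in 14 of 14.

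With the copies joined, most mRNAs moved together from embryo to embryo. Over 14 embryos the SD of log2(FPKM + 1), copies joined, had a median of 1.58 across the 13 mRNAs. After subtraction of each embryo's mean over mt-Nd1, mt-Nd2, mt-Nd5 and mt-Cytb, 4 mRNAs with little match to annotated nuclear transcripts chosen after seeing the data, the median SD was 0.30. mt-Nd6 and mt-Atp8, for which the annotated transcripts hold no such match, were not among the 4. As deposited, without joining, the same subtraction left a median SD of 0.76, with the highest, 3.06, for mt-Co3. With copies joined it was 1.82 for mt-Atp8, 0.82 for mt-Nd3 and 0.76 for mt-Nd6, the mRNAs with the largest SD, and 0.22 for mt-Rnr2. Without R442Q replicate 7 the median SD fell from 1.12 to 0.28 by the same subtraction with copies joined. With nothing subtracted, the median SD of all tested rows was 0.77 over 14 embryos and 0.66 without R442Q replicate 7. The 4 genes subtracted are steady in part by construction.

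Seen by complex, the joined mRNA FPKM of WT embryos was divided into 23.7% ± 2.72 for complex I, 23.2% ± 2.33 for complex III, 26.1% ± 3.13 for complex IV and 27.0% ± 3.37 for ATP synthase (SD, n = 7). In R442Q embryos these parts were 23.4% ± 3.33, 23.7% ± 2.32, 24.1% ± 3.27 and 28.8% ± 3.76 (SD, n = 7). R442Q replicate 7, at 22.4%, 20.6%, 24.2% and 32.8%, lay at the low end for complex III and the high end for ATP synthase. As deposited, without the copies, its ATP synthase part was 10.7%, where the 13 others had 27.0% to 41.9%.

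**Figure D4:**
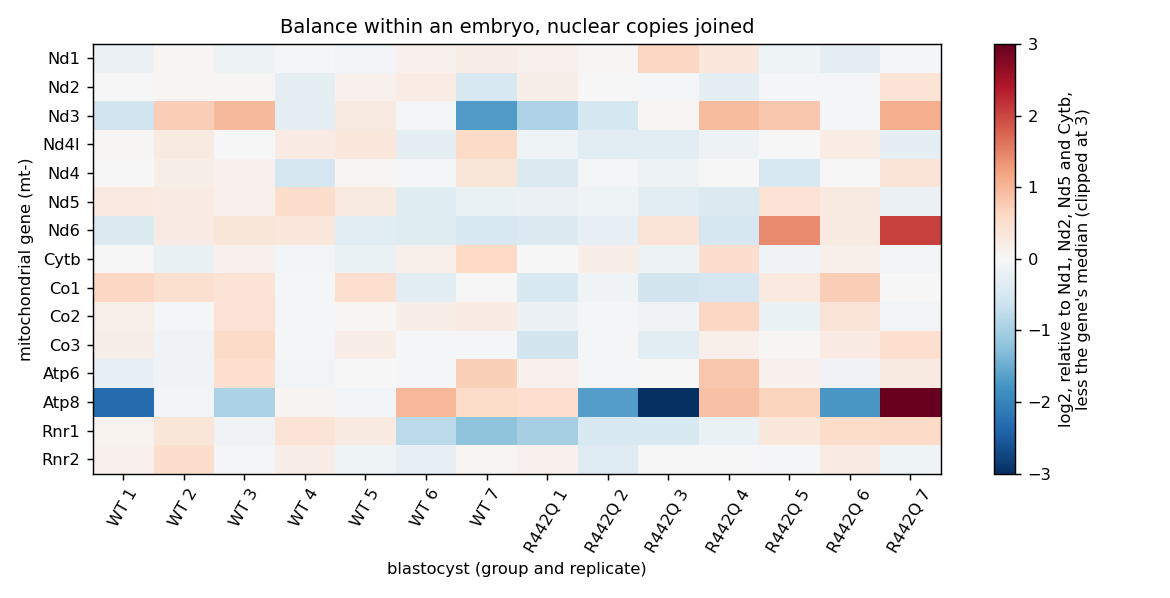
Level of each mitochondrial gene relative to the mean of mt-Nd1, mt-Nd2, mt-Nd5 and mt-Cytb in the same blastocyst, on the log2(FPKM + 1) scale with copies joined and each gene's median subtracted, clipped at 3. Most fields are pale, and mt-Atp8, mt-Nd3 and mt-Nd6 carry the strongest deviations, with SDs over embryos of 1.82, 0.82 and 0.76.

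The groups were then compared gene by gene in 1 limma fit over all 11297 rows that passed the filter. Of the 12 mitochondrial genes tested, 0 passed a Benjamini-Hochberg adjusted p of 0.05 in limma, where 0.00885% of all rows did (1 row). At an unadjusted p under 0.05 the members again numbered 0, where 7.4% of all rows passed. WT and R442Q embryos overlapped for all 12. The largest difference was that of mt-Nd6, with a log2 fold change of 0.59 ± 0.93 (SE; 95% interval -1.37 to 2.56; limma adjusted p 0.929). The smallest was that of mt-Rnr2, at -0.02 ± 0.72 (SE; 95% interval -1.54 to 1.51; limma adjusted p 0.999). mt-Atp6 had the lowest estimate, -0.41 ± 0.52 (SE; 95% interval -1.52 to 0.69; limma adjusted p 0.908), which turned to 0.14 ± 0.74 (SE) with its copy joined. With the copies joined the lowest estimates were those of mt-Co1 and mt-Nd4l, both -0.24. Joined, mt-Co3 gave -0.03 ± 0.75 and mt-Nd3 0.36 ± 0.92 (SE, limma adjusted p 0.999 and 0.961). The joined mt-Nd3 estimate turned to -0.41 ± 0.69 (SE) without R442Q replicate 7.

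The other estimates lay between. For complex I they were 0.18 for mt-Nd1, 0.15 for mt-Nd2, -0.05 for mt-Nd4 and -0.12 for mt-Nd5, and for mt-Cytb 0.10. Complex IV gave -0.18 for mt-Co1 and 0.31 for mt-Co2 (-0.01 with its copy joined), and mt-Atp8 and mt-Rnr1 gave 0.29 and 0.12. In all, 7 of the 12 were above 0 and 5 below, with a median of 0.11, where the median of all rows tested was -0.10. The intervals are wide: for mt-Cytb the limits were -1.41 and 1.62 and for mt-Nd1 -1.39 and 1.75. For low genes the estimate moved with the pseudocount: at 0.1 and 10 in place of 1, mt-Nd6 gave 0.68 and 0.46, and mt-Atp8 gave -0.51 and 0.69.

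The direction turned on single embryos. Without R442Q replicate 7 all 12 estimates were below 0, with a median of -0.57, while the median of all 11212 rows tested was 0.0013. Without R442Q replicate 6, the embryo of lowest share, 11 of the 12 were above 0 with a median of 0.40, where that of all rows was -0.09. Without WT replicate 5, 9 were below 0 with a median of -0.12, where that of all rows was -0.06. Without R442Q replicate 7, again 0 of the 12 passed in limma, at an adjusted or unadjusted p of 0.05 (background 6.5% unadjusted). The lowest limma adjusted p was 0.826 (mt-Co1, log2 fold change -0.87 ± 0.45, SE; 95% interval -1.83 to 0.10). Without R442Q replicate 7 the estimates that moved most were mt-Atp8, from 0.29 to -1.05 ± 0.96, mt-Nd6, from 0.59 to -0.30 ± 0.58, and mt-Rnr1, from 0.12 to -0.62 ± 0.57 (SE). mt-Nd4 and mt-Nd5 stood at -0.75 ± 0.50 and -0.73 ± 0.51 (SE), and mt-Cytb and mt-Nd1 at -0.49 ± 0.55 and -0.42 ± 0.59. With the copies joined and that embryo left out, all 15 mRNAs and rRNAs were below 0 and 0 passed, with a median of -0.62 (lowest limma adjusted p 0.781, mt-Co1).

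**Figure D5:**
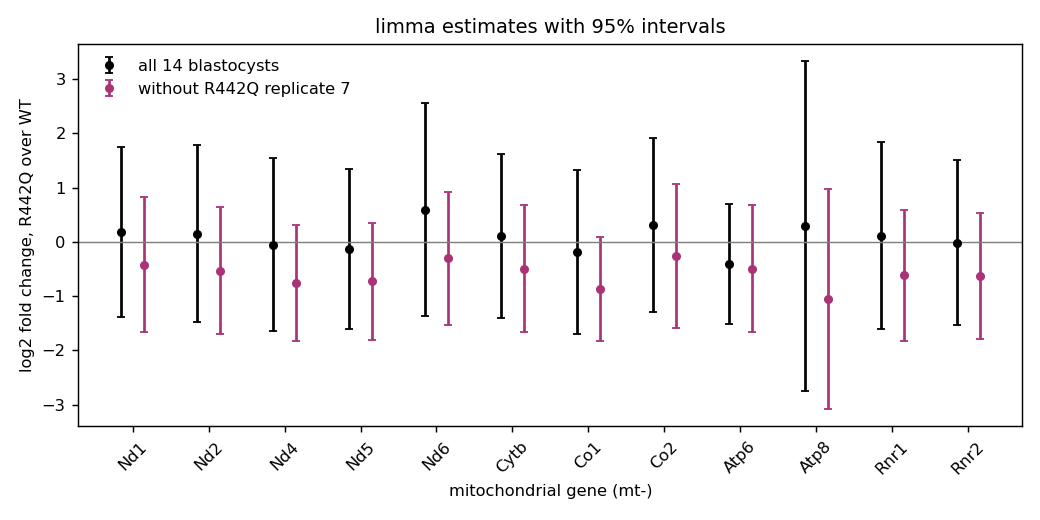
limma log2 fold change of R442Q over WT for the 12 tested mitochondrial genes with 95% intervals, for all 14 blastocysts (black) and without R442Q replicate 7 (purple). All intervals include 0; estimates run from -0.41 to 0.59 with all embryos, and all 12 are below 0 without that embryo.

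Ratios within an embryo compare the genes apart from the embryo's overall mitochondrial level. The log2 ratio of mt-Cytb to mt-Nd1, neither with a match among annotated nuclear transcripts, differed by -0.07 between R442Q and WT, with and without R442Q replicate 7. That of mt-Atp6 to mt-Cytb differed by -0.515 as deposited, by -0.0001 without R442Q replicate 7, and by 0.04 with the copy joined. A fit of the 12 genes relative to the embryo's mean over the 13 mRNAs as deposited called 0 in limma (lowest adjusted p 0.784), with 0 at an unadjusted p under 0.05. That mean includes mt-Co3, mt-Nd3 and mt-Nd4l, whose fragments were mostly listed under the copies, and differences from it sum to 0 over the 13 by construction, so its signs are not read here.

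Nuclear genes supply the machinery that copies, transcribes and processes mitochondrial DNA. Of a list of 64 such genes 63 were in the table and 61 were tested, and 0 passed in limma, with 2 at an unadjusted p under 0.05, where 7.4% of all rows passed. Their median log2 fold change was -0.19 (19 above 0, 42 below), where that of all rows was -0.10. Without R442Q replicate 7 it was -0.07 (25 above 0, 36 below), where that of all rows was 0.0013. Polrmt, the mitochondrial RNA polymerase, was listed at 14.6 ± 7.52 FPKM in WT and 7.08 ± 6.08 in R442Q embryos (SD, n = 7 each), a log2 fold change of -1.10 ± 0.75 (SE, limma adjusted p 0.811). Tfam, which packages mitochondrial DNA and opens its promoters, was at 24.1 ± 8.21 and 17.6 ± 5.95 FPKM, or -0.44 ± 0.27 (SE, limma adjusted p 0.785). Tfb2m, the initiation factor, gave 0.12 ± 0.24 (SE). Tefm, the elongation factor, gave -0.11 ± 0.57 and Polg, the DNA polymerase, -0.11 ± 0.47 (SE), but without R442Q replicate 7 both were above 0, at 0.46 ± 0.29 and 0.27 ± 0.35 (SE, limma adjusted p 0.913 and 0.9997). Lrpprc and Slirp, partners that stabilise mitochondrial mRNAs, gave -0.54 ± 0.30 and 0.09 ± 0.19 (SE), and -0.33 and 0.05 without that embryo, while Polrmt then gave -0.70. Slirp was by far the higher of the pair per length, at 275 ± 82.1 FPKM in WT, against 40.8 ± 8.91 for Lrpprc (SD, n = 7).

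The smallest p of the list belonged to Mterf3, a mitochondrial DNA-binding protein described as a repressor of mitochondrial transcription. Mterf3 averaged 179 ± 100 FPKM among WT and 375 ± 130 among R442Q embryos (SD, n = 7 each), with R442Q replicate 7 the highest at 654. The log2 fold change was 1.15 ± 0.28 (SE; 95% interval 0.57 to 1.73; limma adjusted p 0.151), and 1.01 without R442Q replicate 7 (limma adjusted p 0.227). Without WT replicate 7, the highest WT embryo for Mterf3 at 391 FPKM, it passed, at 1.36 (limma adjusted p 0.0337), in a fit that called 30 of 11025 rows. Fastkd2, which binds the large-subunit rRNA, had the next smallest p, with 30.3 ± 10.6 FPKM in WT, 18.2 ± 8.92 in R442Q (SD, n = 7 each) and a log2 fold change of -0.75 ± 0.32 (SE, limma adjusted p 0.628).

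The zygote and late 2-cell tables held 0 mt- rows, and there the nuclear copies were the rows that carried this sequence. The tables were normalised apart and with other rows, so levels set across them are descriptions only. The 7 copies summed to 5259 ± 3802 FPKM in WT zygotes (SD, n = 5) and 7105 ± 2400 in R442Q zygotes (SD, n = 6). In late 2-cell embryos the sum ran from 21355 to 32977 FPKM in WT (n = 4) and from 6424 to 22760 in R442Q (n = 5), and the groups overlapped. As a share of each embryo's FPKM the copies made up 2.89% to 4.63% in WT and 0.789% to 2.67% in R442Q, and these ranges did not overlap. R442Q replicate 2 exceeded WT replicate 2 in FPKM (22760 against 21355) but not by share (2.67% against 2.89%). The separation by share thus depends also on the embryos' FPKM totals. Among the 14161 rows of that table at 1 FPKM in at least 4 embryos, every R442Q embryo lay below every WT embryo for 9.73% by share and 6.55% by FPKM. Most of the sum was Gm10925, the copy of mt-Atp6, at 19307 ± 2788 FPKM in WT and 10740 ± 5756 in R442Q late 2-cell embryos (SD, n = 4 and 5). Gm28661 (mt-Co2) stood at 3201 ± 1349 and 2499 ± 1293 FPKM and Gm28437 (mt-Co3) at 1671 ± 265 and 801 ± 419. Gm29216 (mt-Co1), singled out after its values were seen, ran from 1965 to 2668 FPKM in WT and from 0 to 220 in R442Q late 2-cell embryos, a separation that 6.55% of those rows also had. In zygotes it averaged 623 ± 595 FPKM in WT (SD, n = 5) and 971 ± 496 in R442Q (SD, n = 6). Gm28439 (mt-Nd4) was listed at 0 in every embryo of the 3 stages. In blastocysts, where the mt- rows were also listed, the 7 copies summed to 1903 ± 1618 FPKM in WT (SD, n = 7) and to between 427 and 3547 in the R442Q embryos other than replicate 7, which held 42073. No test was run on these sums.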

How the data were processed

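The deposited blastocyst table holds FPKM per gene symbol for 1 embryo a column, made by the authors; zygote and late 2-cell FPKM tables were used for the nuclear copies only. The submitters' processing notes name RSEM and mm10 without their roles; versions, annotation and strand setting are not given in the sources used here. Groups and replicate numbers came from the sample titles. Rows that reached 1 FPKM in 7 or more of the 14 embryos were tested on log2(FPKM + 1) with limma 3.58.1 in R 4.3.3 (variance trend, Benjamini-Hochberg adjustment over all rows, threshold 0.05). The approach was tested on simulated data in which each gene varied on its own. Such data lack the shared movement of the mitochondrial genes and an embryo that stands apart. Gene models and sequences came from GENCODE M21 (GRCm38), which held 92.1% of the table's symbols. A nuclear gene was called a copy if over 90% of its 50-base stretches occurred in mitochondrial transcripts, which added Gm28439 and Gm10222 to 5 copies listed earlier, after the data were seen; joining used annotated lengths. With FPKM the depth in counts is unknown, and only relative depth was recovered. Members, gene lists and tests were chosen with earlier results of these data known. Beyond the copies, named were all mRNAs and rRNAs, 7 genes of the machinery list and its 2 smallest p-values, and Chek1. Replicate numbers did not pair the embryos (same-number correlations from -0.168 to 0.204), and the labels do not say whether embryos of a group shared an injection day, so p-values measure the spread between these embryos. The alternatives varied the pseudocount, filter, scaling, weights, block, embryos and copies.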

Additional observations from a re-analysis of the deposited data

Results flagged for a closer look

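In groups of 7, a highest or lowest embryo was marked where its gap to the nearest other took up more of the group's range than Dixon's 95% critical value allows. For normally distributed values chance marks about 1 in 20 groups. The values here were skewed and taken without a log, so that rate does not hold for them. Where all other embryos of a group are at 0, any value above 0 is marked. In all, 27 marks arose from 60 groups, 18 of them from R442Q replicate 7. That embryo was marked for its mitochondrial share (4.71%), its mRNA share (4.28%) and rRNA share (0.426%), and for its low number of rows at an FPKM of at least 1 (8189). It was marked high for mt-Rnr1 (877.9 FPKM), mt-Rnr2 (4050 FPKM), mt-Nd1 (10499 FPKM), mt-Nd2 (504 FPKM), mt-Nd4 (3114 FPKM), mt-Nd5 (969 FPKM), mt-Nd6 (318 FPKM) and mt-Cytb (18494 FPKM). The same embryo was marked for mt-Co1 (2383 FPKM), mt-Co2 (6742 FPKM), mt-Co3 (1076 FPKM), mt-Nd3 (36.5 FPKM) and mt-Atp8 (3571 FPKM), and for Mterf3 (654 FPKM). These marks are not independent, since the mitochondrial genes move together within an embryo.

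R442Q replicate 4 was marked for mt-Atp6 (5221 FPKM), where the fragments of R442Q replicate 7 were listed under Gm10925. WT replicate 2 was marked for mt-Co3 (345 FPKM) and mt-Nd3 (17.3 FPKM), and WT replicate 6 for mt-Nd4l (55.2 FPKM), rows whose other fragments were listed under copies. For mt-Nd3 and mt-Nd4l all other WT embryos were at 0, so any value above 0 would have been marked. WT replicate 4 was marked for mt-Nd5 (373 FPKM) and mt-Nd6 (21.9 FPKM). Among nuclear genes WT replicate 2 was marked for Tfam (41.8 FPKM, high) and Polg (2.53 FPKM, low), and WT replicate 7 for Mterf3 (391 FPKM, high).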

How the results depend on the processing

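The count of mitochondrial genes called was 0 under all 24 alternatives, with limma adjusted p-values of 0.784 or more. The count over all rows was 1, against 2 with a pseudocount of 10, 0 without a filter, 2 with a filter at 5 FPKM, 3 with TMM scaling and 5 with embryo weights. Leaving out 1 embryo at a time it ran from 0 to 30 (the latter without WT replicate 7), and the machinery list from 0 to 1 called. With the replicate number as a block 0 rows were called; the numbers share no stated source, 3 of 7 same-numbered pairs had a correlation over 0.1, and 2 of 7 WT embryos correlated best with their own number. The block changed no mitochondrial call. The share difference of 0.427 percentage points was 0.394 over mRNAs only, 0.518 over rows of at least 200 bases, 0.257 by fragments and 0.858 with the copies (added after seeing the data), and from -0.178 to 0.588 without 1 embryo.

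Each of the 12 genes changed direction under at least 1 alternative, and 11 did so when 1 embryo was left out. Without 1 embryo, log2 fold changes ran from -0.62 to 0.49 for mt-Rnr1, -0.62 to 0.29 for mt-Rnr2, -0.42 to 0.58 for mt-Nd1, -0.53 to 0.51 for mt-Nd2, -0.87 to 0.10 for mt-Co1, -0.27 to 0.63 for mt-Co2, -1.05 to 0.92 for mt-Atp8, -0.75 to 0.28 for mt-Nd4, -0.73 to 0.23 for mt-Nd5, -0.30 to 0.96 for mt-Nd6 and -0.49 to 0.43 for mt-Cytb. mt-Atp6 stayed below 0 there but became 0.14 with its copy joined, as mt-Co2 became -0.01 (-0.0057). Embryo weights gave -0.093 for mt-Rnr1 and -0.01 (-0.0055) for mt-Co2. TMM scaling gave 0.042 for mt-Rnr2 and 0.01 (0.0073) for mt-Nd4, and a pseudocount of 0.1 gave -0.51 for mt-Atp8. Relative to the mean of the 13 mRNAs the values were -0.14 for mt-Rnr1, -0.079 for mt-Nd1, -0.10 for mt-Nd2 and -0.15 for mt-Cytb, signs set in part by the rows of mt-Co3, mt-Nd3 and mt-Nd4l in that mean. Apart from the copies and lone embryos the cause was not tested. The FPKM unit hides counting error, and the short rows could not be judged.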
